A study of Mus musculus with 12 samples.

Results

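The platelet-derived growth factor (PDGF) genes of the mouse comprise 4 ligand genes (Pdgfa, Pdgfb, Pdgfc and Pdgfd) and 2 receptor genes (Pdgfra and Pdgfrb). They were taken by name, together with each probe set annotated to 1 of them alone, which gave 6 of the 17996 genes named on the array and 14 of its 34328 probe sets with a single gene. The RNA was that of somatic support cells from the gonads of mouse embryos, the lineage from which Sertoli cells of the testis and granulosa cells of the ovary arise. The cells came from 4 groups, XY gonads at embryonic day 12.5 (E12.5), XX gonads at E12.5, XY gonads at E11.5 and XX gonads at E11.5, with 3 pools of sorted cells in each. All donors, XX and XY, were of a transgenic FVB strain that carries Tg(Tyr)3412ARpw and the reporter Tg(Sry-EGFP)92EI, so no group lacks the transgenes. A value belongs to a pool of flow-sorted cells, and the sources used here do not give the gate, the number of embryos in a pool or whether pools shared embryos. The p-values therefore measure the spread between these pools, which may be partly technical. In such bulk samples fewer cells of a type and less RNA per cell cannot be told apart.

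PDGF ligands are secreted dimers that bind receptor tyrosine kinases at the cell surface. The A and C chains act through PDGF receptor alpha, the B chain binds both receptors, and the D chain acts mainly through PDGF receptor beta. The C and D chains are released in a latent form with a CUB domain, which proteases of the extracellular space remove before the ligand can bind. In the developing gonad PDGF receptor alpha is known from mesenchymal and interstitial cells, including the precursors of fetal Leydig cells in the testis, and PDGF receptor beta is a gene of pericytes and other perivascular cells.

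Pdgfc and Pdgfra were the genes with a called difference, so the 250 bases before their annotated starts are printed here from RefSeq (build GRCm38.p6). Windows of 4 of the 6 genes were used. The source held none for Pdgfb, and Pdgfrb was left out by a rule of the search. The Pdgfc window lies at chr3:81036166-81036415 on the plus strand and the Pdgfra window at chr5:75152001-75152250 on the plus strand. Capitals mark a CArG box, the site bound by serum response factor.
Pdgfc: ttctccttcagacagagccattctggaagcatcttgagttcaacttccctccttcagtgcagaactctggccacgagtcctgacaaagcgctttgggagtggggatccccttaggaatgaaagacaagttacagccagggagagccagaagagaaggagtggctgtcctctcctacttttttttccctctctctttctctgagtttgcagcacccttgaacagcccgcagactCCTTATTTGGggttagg
Pdgfra: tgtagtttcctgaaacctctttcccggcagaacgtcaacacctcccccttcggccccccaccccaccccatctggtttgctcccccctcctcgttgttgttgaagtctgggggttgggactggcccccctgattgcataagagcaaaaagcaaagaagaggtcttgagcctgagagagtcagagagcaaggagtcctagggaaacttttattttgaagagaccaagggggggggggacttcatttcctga
Motifs were chosen after the sequences had been seen and searched on both strands. They were the SOX core AACAAT, the TCF and LEF core CTTTGAT, the NR5A1 site AAGGTCA, the GATA site AGATAA, the EGR and WT1 site GCGGGGGCG, TATAAA and the CArG box, of which the CArG box alone matched in the Pdgfc window. It spans bases 17 to 8 before the start and reads as a match on either strand. A CArG box was found in 1.47% of the 32851 promoter windows of the same length. The Pdgfra window held none of the 7 motifs. The shares of all windows that held the other motifs were 9.42% for the SOX core, 3.21% for the TCF and LEF core, 4.08% for the NR5A1 site, 9.99% for the GATA site, 2.57% for the EGR and WT1 site and 12.4% for TATAAA. A match of letters is a description of the sequence, and binding was not measured.

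The sexes and days were compared with limma across all 44238 probe sets, and a call means a p under 0.05 after Benjamini-Hochberg adjustment over all of them. Values are log2 signals as deposited, so a difference of 1 is a 2-fold change of signal, and levels are compared between arrays within a probe set only. At E12.5, limma called 9 of 11 Sertoli markers higher and 8 of 8 pregranulosa markers lower in XY than in XX. Over all genes it called 5.59% higher and 5.52% lower there. Both lists were chosen with earlier results of these data known. The counts describe a difference between the sexes and do not test the labelled cell type or its purity. Array medians ran from 6.494 to 6.592. XX E11.5 pool 2 stood apart in its high markers of other cell types, which are given beside the receptors. Its mean correlation with its own group, 0.958, was close to the lowest of the others (0.96 in XX E11.5 pool 3 and 0.962 in XY E11.5 pool 3, with 0.98 the highest). Probe sets of 4 Y-linked genes or transcripts that separated the sexes read 3.33 to 5.17 on the 6 XX arrays, where their target is absent. This is called the range of absent targets below. These 4 were picked because they separated the sexes, so other probe sets may read higher without a target. A value above the range does not show that a gene was expressed.

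Of the 14 PDGF probe sets, 1 was called higher and 2 lower in XY than in XX at E12.5, where 7.72% of all probe sets were called. None was called between XY and XX at E11.5, where limma called 0.0678% of all probe sets and 1 PDGF probe set had an unadjusted p under 0.05. From E11.5 to E12.5, 2 were called lower in XY cells (6.16% of all probe sets called) and 3 lower in XX cells (3.11% of all). The median difference over the 14 was 0.01 between the sexes at E12.5 and -0.05 at E11.5, against 0 and 0.05 over all probe sets. It was -0.26 from E11.5 to E12.5 in XY cells and -0.33 in XX cells, against 0.02 and 0.06 over all. The test of whether the day change differed between the sexes called none of the 14 (1.75% of all probe sets), and 2 of them had an unadjusted p under 0.05.

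**Figure D1:**
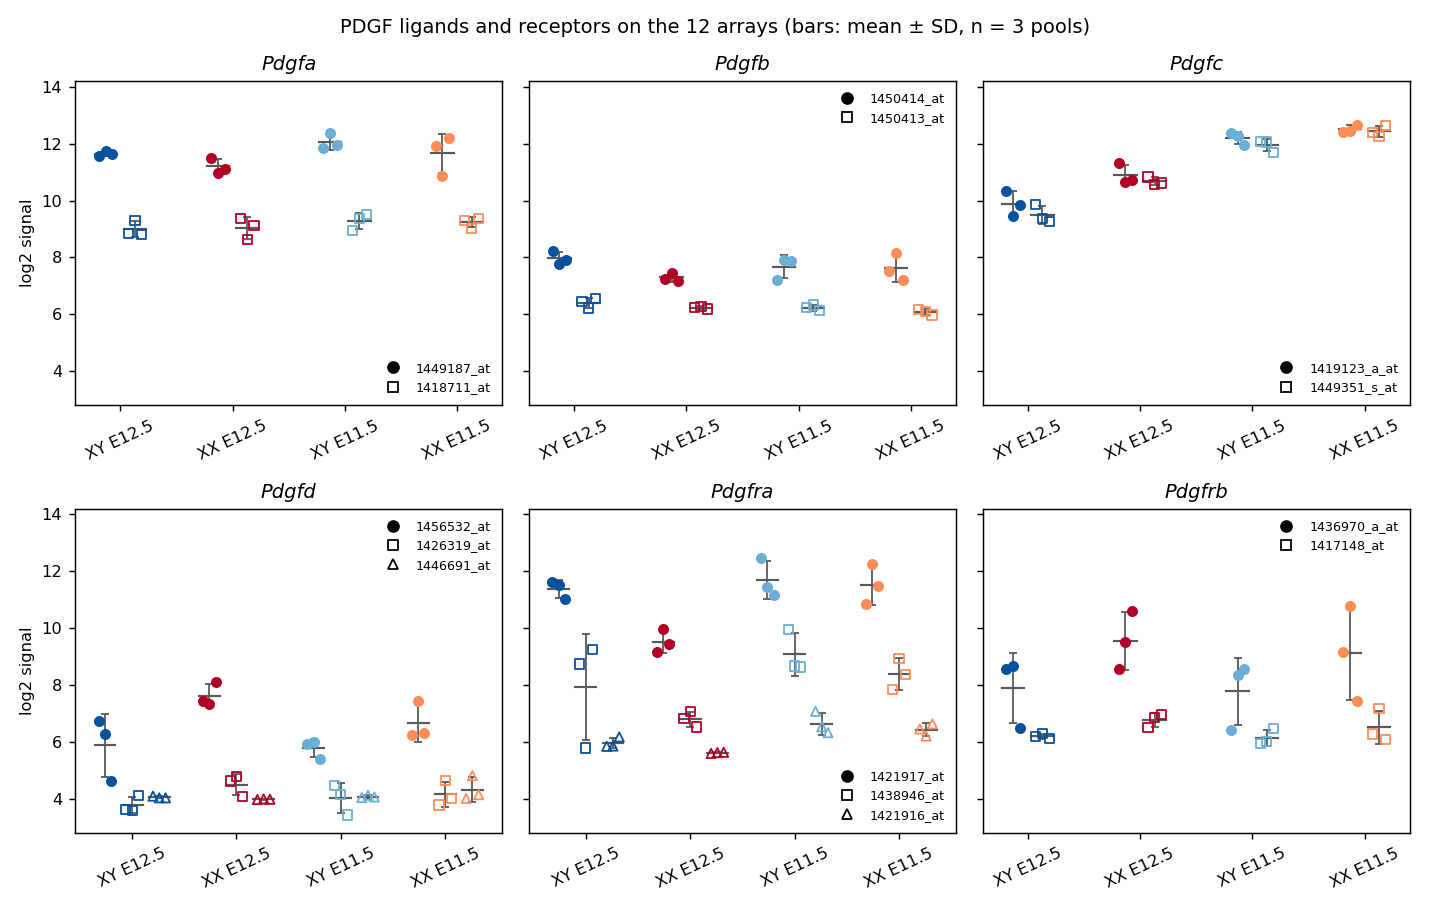
Log2 signal (vertical axis) of the 14 probe sets of the 6 PDGF genes in each pool of the 4 groups (horizontal axis), with filled points for the brightest probe set of a gene, open points for its other probe sets, and bars for the mean and SD of 3 pools. Pdgfc lies lowest in XY E12.5 and highest in XX E11.5, the brightest Pdgfra probe set dips in XX E12.5, and the brightest Pdgfrb probe set spreads widely within every group.

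Among the ligands, Pdgfc carried the clearest differences. At probe set 1449351_s_at it read 9.85, 9.36 and 9.26 in XY E12.5 pools, against 10.83, 10.57 and 10.62 in XX E12.5 pools. At E11.5 it read 12.07, 12.06 and 11.70 in XY pools, against 12.40, 12.24 and 12.64 in XX pools. The groups were fully separated in order, with XY E12.5 lowest, then XX E12.5, then XY E11.5, and XX E11.5 highest, and neighbouring groups did not overlap. Pdgfc was 2.27-fold lower in XY than in XX at E12.5 (log2 difference -1.18 ± 0.18, SE; 95% interval of the fold 1.72 to 3.01; adjusted p = 0.0032, limma). Over the day it fell 5.47-fold in XY cells (4.14 to 7.24; adjusted p = 6.8e-05, limma) and 3.37-fold in XX cells (2.55 to 4.46; adjusted p = 0.0030). All 3 calls held when any 1 of the 12 arrays was left out. At E11.5 the sexes differed by -0.48 ± 0.18 (XY minus XX), which was not called (adjusted p = 0.68, limma). The XY day change minus the XX day change was -0.70 ± 0.26, which was not called either (adjusted p = 0.23, limma).

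The second Pdgfc probe set, 1419123_a_at, is the brighter of the pair and read 10.35, 9.44 and 9.84 in XY E12.5 pools, against 11.31, 10.64 and 10.73 in XX E12.5 pools. It read 12.36, 12.27 and 11.95 in XY E11.5 pools, against 12.40, 12.45 and 12.66 in XX E11.5 pools. The order of the groups was as at the first probe set, and again no neighbouring groups overlapped. The difference between XY and XX at E12.5 was 2.02-fold (1.39 to 2.94; adjusted p = 0.031, limma), with XY lower. The fall over the day was 4.97-fold in XY cells (adjusted p = 0.00056, limma) and 3.04-fold in XX cells (adjusted p = 0.013). The call between the sexes ended without XX E12.5 pool 1 or 3 or XY E12.5 pool 2 or 3 (adjusted p up to 0.099, limma), and the call in XX cells ended without XX E12.5 pool 2 or 3 (up to 0.063). The name _s_at marks probes that several transcripts share and _a_at probes that transcripts of 1 gene share, so neither probe set tells Pdgfc transcripts apart.

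**Figure D2:**
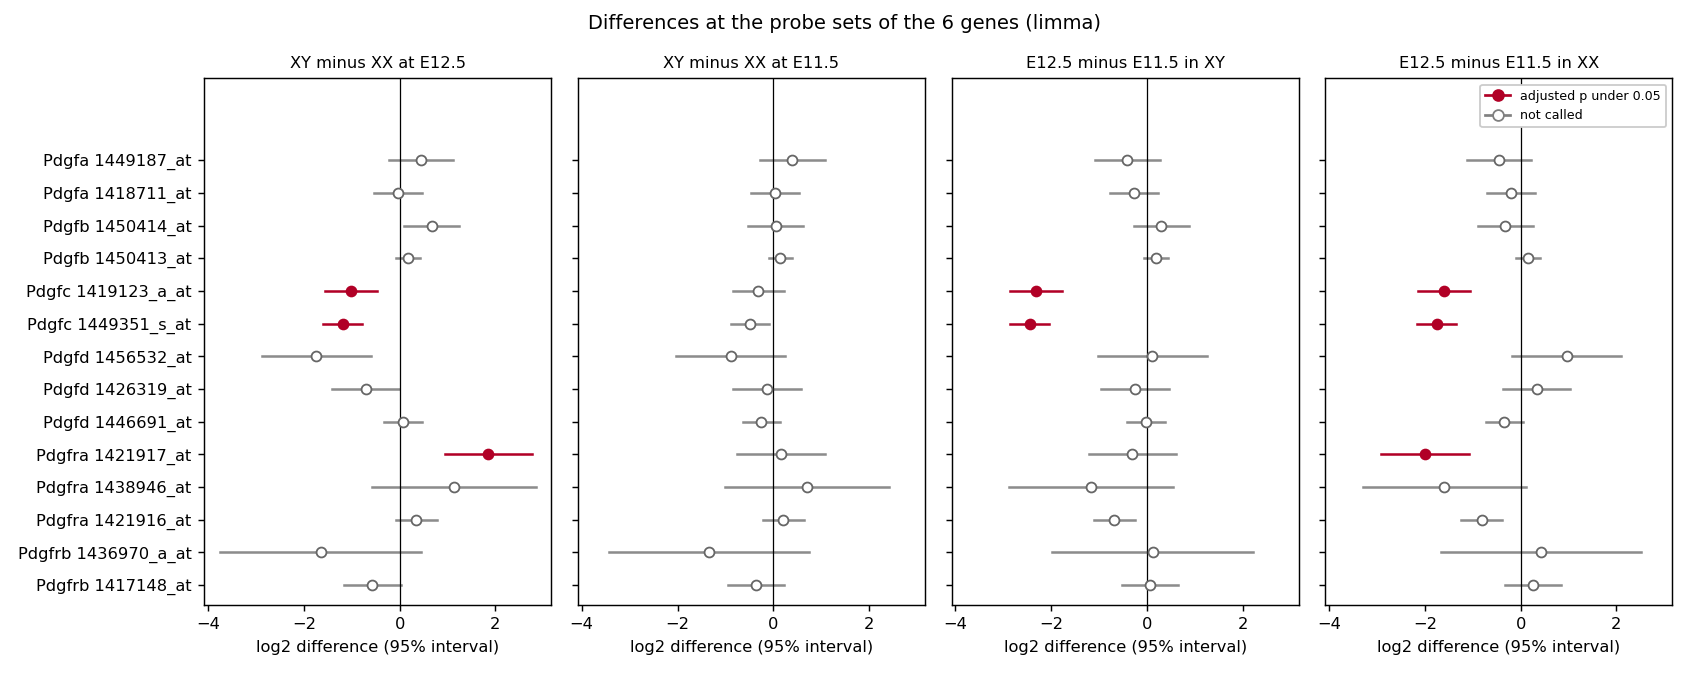
Log2 difference with its 95% interval (horizontal axis) for each of the 14 PDGF probe sets (vertical axis) in 4 comparisons, with red for an adjusted p under 0.05 in limma. Both Pdgfc probe sets lie left of 0 in every panel and are called in 3 of them, and Pdgfra 1421917_at is called higher in XY at E12.5 and lower at E12.5 than at E11.5 in XX.

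Pdgfa encodes the A chain, the classical ligand of PDGF receptor alpha, and read above the range of absent targets in all 4 groups. Probe set 1449187_at read 11.55, 11.75 and 11.65 in XY E12.5 pools, against 11.50, 10.98 and 11.11 in XX E12.5 pools. It read 11.84, 12.37 and 11.96 in XY E11.5 pools, against 11.91, 10.87 and 12.19 in XX E11.5 pools. The XY E12.5 pools lay just above those of XX E12.5 and below those of XY E11.5, and the low value of the last group was that of XX E11.5 pool 2. The sexes differed by 0.45 at E12.5 (-0.22 to 1.12; adjusted p = 0.48, limma) and by 0.40 at E11.5 (adjusted p = 0.80), and without XX E11.5 pool 2 the difference at E11.5 was 0. The day change in XX cells was -0.46, and -0.85 without that pool (adjusted p = 0.082, limma). The second probe set, 1418711_at, read 8.85, 9.31 and 8.82 in XY E12.5 pools, against 9.38, 8.62 and 9.11 in XX E12.5 pools. It read 8.95, 9.36 and 9.51 in XY E11.5 pools, against 9.31, 9.03 and 9.37 in XX E11.5 pools, and the sexes overlapped on both days. The order of its group means was XY E11.5, XX E11.5, XX E12.5 and XY E12.5 from high to low, with no neighbours separated beyond their spread. No Pdgfa difference was called.

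Pdgfb encodes the B chain, which recruits pericytes to vessels. Probe set 1450414_at read 8.23, 7.77 and 7.90 in XY E12.5 pools, against 7.26, 7.47 and 7.17 in XX E12.5 pools. At E11.5 it read 7.20, 7.92 and 7.89 in XY pools, against 7.51, 8.14 and 7.22 in XX pools. The sexes were separated at E12.5 and overlapped at E11.5. The difference at E12.5 was 0.67 (0.09 to 1.24; adjusted p = 0.18, limma), higher in 3 of 3 XY pools, and was not called. Probe set 1450413_at stayed between 5.98 and 6.55 on the 12 arrays, at 6.46, 6.22 and 6.55 in XY E12.5 pools and 6.24, 6.29 and 6.19 in XX E12.5 pools. It read 6.23, 6.33 and 6.13 in XY E11.5 pools and 6.17, 6.09 and 5.98 in XX E11.5 pools, with no call in any comparison.

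Pdgfd encodes the latent D chain. Its brightest probe set, 1456532_at, read 6.75, 6.27 and 4.63 in XY E12.5 pools, against 7.46, 7.33 and 8.10 in XX E12.5 pools. At E11.5 it read 5.93, 5.99 and 5.41 in XY pools, against 6.25, 7.43 and 6.32 in XX pools. All XY pools lay below all XX pools on each day, and the value of 4.63 in XY E12.5 pool 3 fell within the range of absent targets. XY minus XX was -1.74 ± 0.51 (SE) at E12.5 (-2.88 to -0.60; adjusted p = 0.071, limma) and -0.89 ± 0.51 at E11.5 (adjusted p = 0.77), neither of them called. The E12.5 difference was called with array weights (-1.97; adjusted p = 0.026, limma) and without XY E12.5 pool 1 (-2.17; adjusted p = 0.043). Array weights also raised the calls over all probe sets from 3416 to 5794, and pool 1 held the highest of the XY E12.5 values. The difference was not called under any other setting or omission, that of XY E12.5 pool 3 included. Without XX E11.5 pool 2 the E11.5 difference was -0.51.

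The other Pdgfd probe sets read within the range of absent targets on all arrays. Probe set 1426319_at read 3.64, 3.60 and 4.13 in XY E12.5 pools, 4.63, 4.80 and 4.08 in XX E12.5 pools, 4.48, 4.17 and 3.44 in XY E11.5 pools and 3.79, 4.66 and 4.03 in XX E11.5 pools. Probe set 1446691_at read 4.10, 4.04 and 4.04 in XY E12.5 pools, 3.98, 4 and 3.99 in XX E12.5 pools, 4.05, 4.13 and 4.07 in XY E11.5 pools and 4.02, 4.82 and 4.15 in XX E11.5 pools. Neither was called in any comparison, and the highest value of the second probe set, 4.82, was again on XX E11.5 pool 2.

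Of the receptors, Pdgfra was higher in XY than in XX cells at E12.5 and fell over the day in XX cells, at 1 of its 3 probe sets. That probe set, 1421917_at, is its brightest and read 11.62, 11.52 and 11.02 in XY E12.5 pools, against 9.16, 9.98 and 9.46 in XX E12.5 pools. At E11.5 it read 12.46, 11.46 and 11.16 in XY pools, against 10.84, 12.27 and 11.48 in XX pools. The XX E12.5 pools lay below all other pools, and the other 3 groups overlapped one another. Pdgfra was 3.62-fold higher in XY than in XX at E12.5 (1.85 ± 0.41, SE; fold interval 1.91 to 6.83; adjusted p = 0.022, limma). In XX cells it fell 4-fold over the day (2.11 to 7.55; adjusted p = 0.035, limma). The change in XY cells was -0.31 ± 0.41 (adjusted p = 0.76, limma) and the difference between the sexes at E11.5 was 0.16 ± 0.41 (adjusted p = 0.94). The XY change minus the XX change was 1.69 ± 0.58, which was not called (adjusted p = 0.20, limma), so a difference between the sexes in the day change was not shown.

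Single arrays decided the Pdgfra calls. The call between the sexes ended without XX E12.5 pool 1 or 3 or XY E12.5 pool 1 or 2, with differences of 1.67 to 2.08 over all 12 omissions and an adjusted p of up to 0.078 (limma). The call in XX cells ended without XX E11.5 pool 2 (-1.63, adjusted p = 0.090, limma), without XX E11.5 pool 3 and without any of the 3 XX E12.5 pools (adjusted p up to 0.13), with changes of -2.34 to -1.63.

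**Figure D3:**
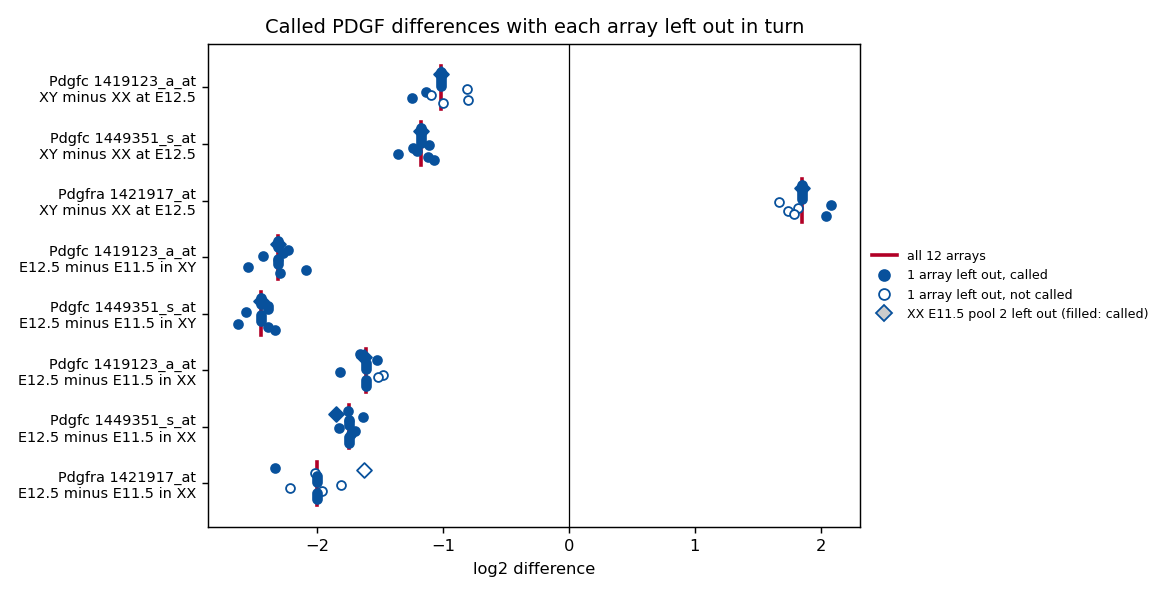
Log2 difference (horizontal axis) for each called PDGF difference (vertical axis), with a red line for all 12 arrays and a point for each array left out, filled where limma still called it and open where it did not. The points of Pdgfc 1449351_s_at stay filled in all 3 rows, and the diamond for XX E11.5 pool 2 is open in the row of Pdgfra in XX cells, at -1.63.

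The other Pdgfra probe sets were not called in any comparison. Probe set 1438946_at read 8.74, 5.79 and 9.26 in XY E12.5 pools, against 6.82, 7.06 and 6.53 in XX E12.5 pools. At E11.5 it read 9.95, 8.67 and 8.64 in XY pools, against 7.84, 8.95 and 8.38 in XX pools. XY E12.5 pool 2 was the lowest of the 12 arrays here, although it was high at the brightest probe set. The difference between the sexes at E12.5 was 1.13 ± 0.77 with that pool (adjusted p = 0.49, limma) and 2.2 without it (adjusted p = 0.020). Probe set 1421916_at read 5.85, 5.86 and 6.18 in XY E12.5 pools, against 5.60, 5.63 and 5.64 in XX E12.5 pools. It read 7.08, 6.54 and 6.33 in XY E11.5 pools, against 6.46, 6.21 and 6.64 in XX E11.5 pools. Both sexes were lower at E12.5 than at E11.5 with no overlap, by -0.81 ± 0.19 in XX cells (adjusted p = 0.051, limma) and -0.69 ± 0.19 in XY cells (adjusted p = 0.065), and neither was called. The change in XX cells was called with array weights (adjusted p = 0.035, limma) and without XY E11.5 pool 1 (0.022) or pool 3 (0.042). The 3 probe sets therefore gave the same direction in XX cells over the day but 1 call among them, and in XY cells changes of -0.31, -1.16 and -0.69. With the probe sets of Pdgfra averaged, the sexes differed by 1.11 at E12.5 and were not called apart (adjusted p = 0.063, limma).

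Pdgfrb, the receptor of the B and D chains, spread widely between pools of a group. Probe set 1436970_a_at read 8.55, 8.68 and 6.49 in XY E12.5 pools, against 8.55, 9.52 and 10.60 in XX E12.5 pools. At E11.5 it read 6.44, 8.34 and 8.58 in XY pools, against 9.16, 10.77 and 7.46 in XX pools. XX E11.5 pool 2 was the highest of the 12 arrays. The means were 7.90 ± 1.23 in XY E12.5, 9.56 ± 1.03 in XX E12.5, 7.79 ± 1.17 in XY E11.5 and 9.13 ± 1.66 in XX E11.5 (SD, n = 3 each). XY minus XX was -1.65 ± 0.94 at E12.5 (-3.75 to 0.45; adjusted p = 0.39, limma) and -1.35 ± 0.94 at E11.5 (adjusted p = 0.79). Without XX E11.5 pool 2 the difference at E11.5 was -0.53. Probe set 1417148_at read 6.20, 6.30 and 6.12 in XY E12.5 pools, against 6.50, 6.85 and 6.98 in XX E12.5 pools. It read 5.96, 6.01 and 6.48 in XY E11.5 pools, against 6.28, 7.17 and 6.09 in XX E11.5 pools. XY lay below XX in all pools at E12.5, by -0.57 ± 0.26 (adjusted p = 0.27, limma), and the difference of -0.37 at E11.5 was -0.04 without XX E11.5 pool 2. The day changes in XX cells were 0.42 and 0.26 at these probe sets, and 1.24 and 0.59 without that pool. No Pdgfrb difference was called.

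Markers of other cell types were set beside the receptors, since both are expressed outside the supporting lineage. The mean deviation of 14 interstitial mesenchyme markers from their 12-array means was 1.51 on XX E11.5 pool 2 and between -0.52 and 0.47 on the other 11 arrays. For 14 endothelial markers it was 1.71 on that array and between -0.55 and 0.34 elsewhere. None of these 28 genes stayed within the range of absent targets on all arrays. Among the endothelial markers, the group means of Pecam1 were 4.89 to 5.1, within that range. Those of Tie1 were 4.24 to 5.2, at or within it. On the same array Pdgfrb 1436970_a_at stood 2.18 above its mean, Pdgfra 1421917_at 1.23 above, Pdgfb 1450414_at 0.50 above and Pdgfc 1449351_s_at 1.10 above. The other Pdgfrb probe set, 1417148_at, stood 0.76 above, and Pdgfra 1438946_at and 1421916_at 0.90 and 0.04 above. Pdgfra 1421917_at was higher, at 1.42, on XY E11.5 pool 1, where the mesenchyme markers were at -0.43. Pdgfrb 1436970_a_at reached 2.01 on XX E12.5 pool 3, where the mesenchyme markers were at 0.22. The value of Pdgfc 1449351_s_at was the lowest of the XX E11.5 pools, beside 1.27 and 1.51. That of Pdgfc 1419123_a_at on XX E11.5 pool 2 was 1.08, between 1.03 and 1.29 in the other XX E11.5 pools. Pdgfb 1450413_at was at -0.15 on XX E11.5 pool 2.

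Over all 17996 genes, at the brightest probe set of each, limma called 5.59% higher and 5.52% lower in XY than in XX at E12.5. From E11.5 to E12.5 it called 4.47% higher and 2.54% lower in XY cells, and 2.55% higher and 1.21% lower in XX cells. Of the 14 mesenchyme markers 1 was higher in XY than in XX at E12.5, with a list median of 0.19, and over the day 1 was higher and 1 lower in XY cells and 1 lower in XX cells. The count at E12.5 is near the share over all genes. It was that of Ptch1, the hedgehog receptor, 4.50-fold higher in XY (adjusted p = 0.0017, limma), which also rose 3.67-fold over the day in XY cells (adjusted p = 0.0058). Nr2f2, a nuclear receptor of interstitial cells, fell over the day by 2.2 in XY cells and by 1.69 in XX cells on the log2 scale (adjusted p = 0.0090 and 0.046, limma). The call of Nr2f2 in XX cells ended without XX E11.5 pool 2 (adjusted p = 0.11, limma) and without 7 other arrays, namely XX E11.5 pool 3, XY E11.5 pool 1, XX E12.5 pools 2 and 3 and all 3 XY E12.5 pools. Of the 14 endothelial markers limma called none in these 3 comparisons, and none had an unadjusted p under 0.05.

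The 11 pericyte and smooth muscle markers had mean deviations of -0.43 to -0.17 in XY E12.5 pools, 0.06 to 0.41 in XX E12.5 pools, -0.29 to 0.09 in XY E11.5 pools and -0.04 to 0.42 in XX E11.5 pools. Cnn1 and Higd1b of this list stayed within the range of absent targets on all arrays. At E12.5 limma called 1 of the 11 higher and 2 lower in XY than in XX, and the list median was -0.14. Acta2, smooth muscle actin, was 12.5-fold lower, Myh11, smooth muscle myosin, 8.46-fold lower and Mcam, an adhesion molecule of perivascular cells, 6.53-fold higher in XY (adjusted p = 0.00015, 0.0026 and 0.00011, limma). Those 3 calls held with any 1 of the 12 arrays left out, and the other 8 markers were not called. At E12.5, 1 of 3 Acta2 probe sets and 1 of 3 Ptch1 probe sets were called in the direction given, and over the day 2 of 6 Nr2f2 probe sets in XY cells and 1 of 6 in XX cells.

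The 12 macrophage and leukocyte markers had mean deviations of 0.37 to 0.68 in XY E12.5 pools, -0.22 to -0.12 in XX E12.5 pools, -1.01 to -0.38 in XY E11.5 pools and -0.42 to 0.87 in XX E11.5 pools, with 0.87 on XX E11.5 pool 2. Their mean deviation was thus higher in all XY than in all XX pools at E12.5. By single marker the differences there ran from -0.09 (Cx3cr1) to 1.67 (Ptprc), with a list median of 0.43, and several markers overlapped between the sexes. Of the 12, limma called 1 higher, where it called 5.59% of all genes higher. That marker, Fcgr3, an immunoglobulin receptor of myeloid cells, was 2.34-fold higher in XY (adjusted p = 0.020, limma; lost without XX E12.5 pool 2 or 3 or XY E12.5 pool 2 or 3). Over the day in XY cells Fcgr3 rose 2.78-fold and Cd68, a lysosomal protein of macrophages, 2.52-fold (adjusted p = 0.011 and 0.049, limma), with the first call kept in 12 and the second in 3 of 12 omissions, and the second lost without XX E11.5 pool 2 (adjusted p = 0.052). In XX cells limma called none of the 12, with 3 at an unadjusted p under 0.05.

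The 8 measured coelomic and mesonephric epithelium markers had mean deviations of -0.60 to -0.50 in XY E12.5 pools, 0.24 to 0.60 in XX E12.5 pools, -0.13 to 0.02 in XY E11.5 pools and -0.22 to 0.58 in XX E11.5 pools, again with no overlap at E12.5. Emx2, a homeodomain factor of the urogenital epithelium, was the 1 called gene, 8.94-fold lower in XY than in XX at E12.5 and 8.67-fold lower at E12.5 than at E11.5 in XY cells (adjusted p = 5.6e-05 and 9.7e-05, limma). Both calls held in all 12 omissions. Mean levels of Emx2 were 8.59 in XY E12.5 and 11.71 to 11.87 in the other groups. Those of Wt1, also on this list, were 11.88 to 12.55 in the 4 groups. Both genes thus read above the range of absent targets in every group. Which cells of the pools carried them, supporting cells or others, was not tested.

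The 5 measured steroidogenic markers had mean deviations of 0.08 to 0.33 in XY E12.5 pools, -0.60 to -0.20 in XX E12.5 pools, -0.05 to 0.40 in XY E11.5 pools and -0.08 to 0.06 in XX E11.5 pools. Hsd17b3, which makes testosterone, was 2.76-fold higher in XY than in XX at E12.5 and rose 2.54-fold over the day in XY cells (adjusted p = 8.8e-05 and 0.00025, limma). Each call held in all 12 omissions. Its mean level was 6.06 in XY E12.5. In the other groups it was 4.59 to 4.71, within the range of absent targets. Which cells of the pools carried Hsd17b3, supporting cells or others, was not tested. Cyp11a1, which makes the first steroid from cholesterol and is a gene of fetal Leydig cells, fell 16.1-fold in XY cells and 5.88-fold in XX cells (adjusted p = 0.00046 and 0.015, limma). The call of Cyp11a1 held in all 12 omissions in XY cells and ended without XX E12.5 pool 2 or 3 in XX cells, and it was made at 1 of its 3 probe sets. At E12.5 Cyp11a1 did not pass the test between the sexes, at -1.50 ± 0.41 (adjusted p = 0.052, limma).

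Platelets carry PDGF, so megakaryocyte and erythroid markers were included, and the 10 measured had mean deviations of -0.59 to 0.55 over the 12 arrays. Klf1, an erythroid factor, was the 1 called gene, 2.68-fold higher in XY than in XX at E12.5 (adjusted p = 0.015, limma; lost without XX E12.5 pool 1 or 3 or XY E12.5 pool 2). The platelet chemokines Ppbp and Pf4, named after their values were seen, changed by -3.62 ± 1.43 and -2.28 ± 1.07 over the day in XX cells. Their days did not overlap, and neither was called (adjusted p = 0.18 and 0.24, limma). The other markers of this list overlapped between the days in XX cells, with changes from -0.75 (Itga2b) to 0.39 (Klf1). The median of the whole list was -0.11 there, against 0.12 over all genes. Of 9 germ cell markers limma called none in these comparisons, with 1, 1 and 3 at an unadjusted p under 0.05 between the sexes at E12.5, over the day in XY cells and over the day in XX cells. The part of other cell types in the PDGF values was not tested.

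**Figure D4:**
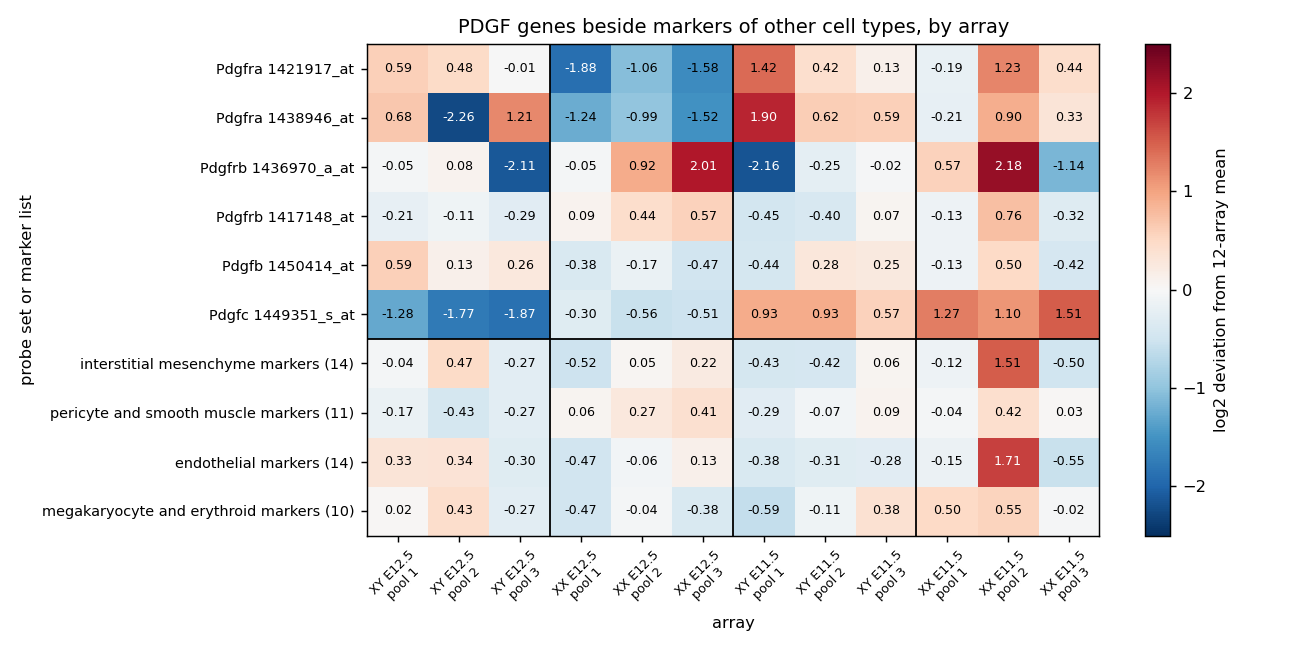
Log2 deviation from the 12-array mean (colour and number) of 6 PDGF probe sets and 4 marker lists (vertical axis, with the number of genes in a list) on each array (horizontal axis, XY before XX and E12.5 before E11.5). The mesenchyme and endothelial rows are highest on XX E11.5 pool 2, at 1.51 and 1.71, where Pdgfrb 1436970_a_at also has its highest value, 2.18.

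Of 7 genes for proteases that process PDGF chains or can free the latent ones, 1 was higher and 1 lower in XY than in XX at E12.5. Pcsk5, a proprotein convertase, was 3.01-fold higher (2.33 to 3.89; adjusted p = 0.00031, limma), a call that held with any 1 array left out. Mmp14, a membrane-bound metalloproteinase, was 2.93-fold lower (adjusted p = 0.022, limma), a call that ended without XX E12.5 pool 1 or 3 or XY E12.5 pool 1 or 3. From E11.5 to E12.5 in XY cells St14, the gene of matriptase, was 1.69-fold higher and Mmp14 2.63-fold lower (adjusted p = 0.022 and 0.042, limma). The St14 call ended without XY E11.5 pool 1 or 3 or XY E12.5 pool 1 or 2, and the Mmp14 call held in 3 of 12 omissions. With the XY arrays alone neither was called (adjusted p = 0.054 and 0.088, limma). In XX cells Pcsk5 was 1.90-fold lower (adjusted p = 0.022, limma). That call ended without XX E11.5 pool 2, where the adjusted p was 0.05 (limma), at the threshold, and without XX E12.5 pool 2 or 3.

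Among 10 measured genes whose products modify or bind PDGF receptors or ligands, 3 were higher and 1 lower in XY than in XX at E12.5. Sparc, a matrix protein that binds PDGF chains, was 4.98-fold higher (adjusted p = 0.0025, limma). Pdgfrl, a receptor-like gene without a kinase, was 6.07-fold higher (adjusted p = 0.0030, limma). Nrp1, a co-receptor of several growth factors, was 8.66-fold lower (adjusted p = 0.0028, limma). These 3 calls held in all 12 omissions. Cspg4, a proteoglycan of pericytes and other stromal cells, was 2.72-fold higher (adjusted p = 0.017, limma), and its call ended without XX E12.5 pool 2 or 3 or XY E12.5 pool 1 or 3. Over the day in XY cells Pdgfrl rose 6.57-fold, Sparc rose 2.69-fold and Nrp1 fell 5.42-fold (adjusted p = 0.0037, 0.036 and 0.015, limma). Pdgfrl kept that call in all 12 omissions and Sparc in 5 and not with the XY arrays alone (adjusted p = 0.077, limma), and Nrp1 lost it without XY E11.5 pool 3 or XY E12.5 pool 1 or 2. Over the day in XX cells limma called none of the 10 at its brightest probe set, with 1 at an unadjusted p under 0.05, and 2 at another probe set. At E12.5 the call was made at 2 of 3 Sparc probe sets, 2 of 4 of Nrp1, 1 of 2 of Cspg4, 2 of 5 of Pcsk5 and 1 of 2 of Mmp14.

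Of 27 measured genes that relay the signal inside the cell, 4 were higher and 1 lower in XY at E12.5 at their brightest probe sets, and 6 were called at any probe set. Map2k1, a kinase upstream of ERK, was 3.12-fold higher and Sphk1, sphingosine kinase, 2.26-fold higher (adjusted p = 0.0018 and 0.0032, limma), each in all 12 omissions. Nck2, an adaptor, was 2.55-fold higher, Plcg1, a phospholipase, 1.36-fold higher and Grb2, the adaptor to the RAS pathway, 1.57-fold lower (adjusted p = 0.024, 0.048 and 0.039, limma), and these calls held in 7, 2 and 5 of 12 omissions. Over the day in XY cells Sphk1 rose 1.91-fold, Akt2 fell 1.78-fold and Akt1 fell 1.37-fold (adjusted p = 0.014, 0.0046 and 0.030, limma). The Akt2 call held in 12 omissions, the Sphk1 call in 9 and the Akt1 call in 7, and 6 genes were called at any probe set. In XX cells Pik3r1, a regulatory subunit of phosphoinositide 3-kinase, fell 3.36-fold (adjusted p = 0.014, limma; lost without XX E12.5 pool 2 or 3) and 3 genes were called at any probe set.

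Of 13 genes that dampen receptor tyrosine kinase signals, 3 were higher and none lower in XY at E12.5. Spry4, a Sprouty inhibitor of the RAS pathway, was 19.7-fold higher (9.74 to 39.9; adjusted p = 0.00035, limma), and Dusp6, a phosphatase of ERK, 6.21-fold higher (adjusted p = 0.0043), both in all 12 omissions. Spry4 was called at 3 of its 4 probe sets. Spry2 was 1.77-fold higher (adjusted p = 0.035, limma; lost without XX E12.5 pool 2 or 3 or XY E12.5 pool 1 or 3). Over the day in XY cells Spry4 rose 4.39-fold (adjusted p = 0.024, limma; lost without XY E11.5 pool 1 or 3 or XY E12.5 pool 2 or 3). Ptpn1, a tyrosine phosphatase, fell 2.06-fold (adjusted p = 0.011, limma), a call that held in all 12 omissions and ended when the compared arrays alone were fitted (adjusted p = 0.054).

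Of 18 genes that respond early to growth factors, 3 were higher and none lower in XY at E12.5. The list median was 0.77 against 0 over all genes. Mean deviations of the list were 0.53 to 0.62 in XY E12.5 pools and -0.41 to 0.38 in XX E12.5 pools. They were -0.25 to 0.13 in XY E11.5 pools and -0.87 to -0.02 in XX E11.5 pools, so XX pools of a day spread widely. Egr1, an immediate early transcription factor, was 2.82-fold higher, Dusp1, a phosphatase of MAP kinases, 3.09-fold higher and Junb, an AP-1 subunit, 1.92-fold higher (adjusted p = 0.015, 0.029 and 0.027, limma). Each call ended without XX E12.5 pool 2 or 3, that of Egr1 also without XY E12.5 pool 1, that of Junb without XY E12.5 pool 2 or 3 and that of Dusp1 without each XY E12.5 pool. In XY cells Egr1 rose 3.58-fold and Junb 2.91-fold over the day (adjusted p = 0.0075 and 0.0032, limma), both in all 12 omissions. These genes respond to many receptors, and none of these lists is specific to PDGF. Over the day in XX cells limma called none of the 13 dampening genes and none of these 18 response genes at its brightest probe set, with 4 and 6 at an unadjusted p under 0.05. At another probe set 1 of the dampening genes was called there, and in XY cells 6 of them were called at any probe set. The median differences between the sexes at E12.5 were 0.37 for the proteases, 0.50 for the receptor and ligand modifiers, 0.20 for the relay and 0.22 for the dampening genes. Over the day the medians of these 4 lists and of the response genes were 0.38, 0.38, 0.09, -0.04 and 0.44 in XY cells, against 0.06 over all genes, and 0.25, -0.03, -0.16, -0.02 and 0.38 in XX cells, against 0.12 over all genes. Plau, the urokinase gene of the protease list, stayed within the range of absent targets on all arrays. Of 13 genes for related ligands and receptor kinases (the VEGF, KIT and CSF1 families and FLT3), limma called none at its brightest probe set between the sexes at E12.5, with 1 at an unadjusted p under 0.05. Over the day it also called none, with 5 in XY cells and 4 in XX cells at an unadjusted p under 0.05, and 1 gene at another probe set in XX cells.

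The genes whose pattern over the 12 arrays lay closest to that of Pdgfc 1449351_s_at were Diaph2, a formin that organises actin, Emb, an adhesion molecule, Dnmt3a, a DNA methyltransferase, Zfhx4, a homeodomain zinc finger protein, and Sf3b1, a splicing factor. Their root mean square differences from Pdgfc, as deviations from 12-array means, were 0.27, 0.32, 0.34, 0.38 and 0.39, against a median of 1.22 over all genes and a Pdgfc SD of 1.21 over the arrays. The genes closest to Pdgfra 1421917_at were Atp6v1h, a proton pump subunit, Klf3, a zinc finger factor, Sgms1, a sphingomyelin synthase, Pdp1, a phosphatase of pyruvate dehydrogenase, and Hmga2, a chromatin protein. Their differences from Pdgfra were 0.35, 0.35, 0.37, 0.40 and 0.40, against a median of 1.05 and a Pdgfra SD of 1.03. The mean of Diaph2 was 4.76 in XY E12.5, within the range of absent targets, and 5.71 to 7.65 in the other groups. All of these genes were read on the same arrays and were picked for likeness, so the values are a description.

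**Figure D5:**
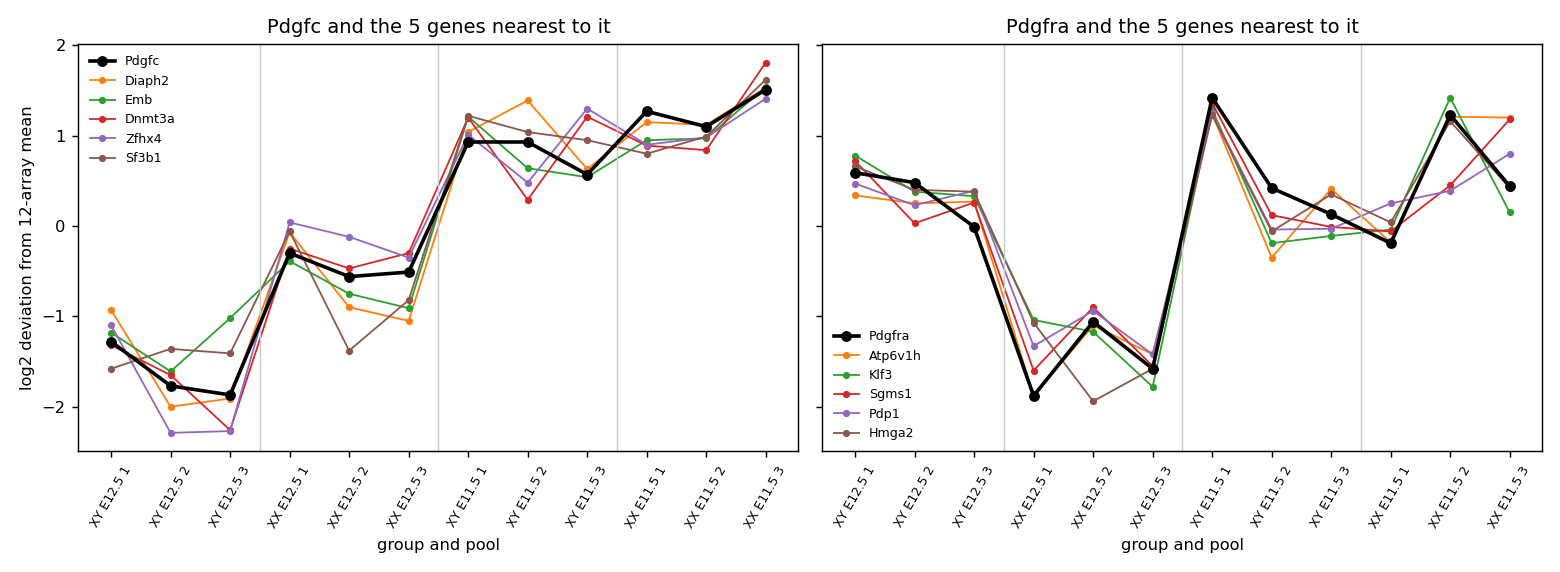
Log2 deviation from the 12-array mean (vertical axis) of Pdgfc 1449351_s_at and Pdgfra 1421917_at (black) and of the 5 genes nearest to each (colours) on the 12 arrays (horizontal axis, by group and pool). The Pdgfc line steps up from XY E12.5 through XX E12.5 to the E11.5 arrays, and the Pdgfra line is lowest on the XX E12.5 arrays.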

How the data were processed

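RNA of each pool of sorted cells was extracted by PicoPure, went through 2 rounds of amplification and was labelled with biotin, per the labels' protocols. The authors deposited 1 table of log2 values per probe set and array from a whole-genome Affymetrix mouse array. How probes were corrected, normalized and summarised is not given in the sources used here. Its log base is not stated and was taken as log2 from a largest value of 14.45. Amplification and a log scale compress or distort low signals, and depth does not apply to arrays, whose number (3 per group) limits the precision.

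Of 45037 probe sets in the table, 44238 had a value on all arrays and were tested, 798 had none and 1 lacked a single value. Gene names came from the supplied platform annotation, updated through Entrez identifiers, with 34328 probe sets of 1 symbol, 850 of several (not used) and 9060 of none. The means of the 4 groups were fitted over 12 arrays in limma 3.58.1 (R 4.3.3), with 8 residual and 2.11 prior degrees of freedom and two-sided tests, with Benjamini-Hochberg adjustment over all tested probe sets, and the script was tested on simulated data. A fold is the antilog of the fitted difference, as are the ends of its 95% interval.

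The 6 genes were given by name. The genes and the lists were chosen with earlier results of these data known. All probe sets of the 6 genes are described, a list gene is represented by its brightest probe set on average, up to 6 called genes of a list are named per comparison by smallest p, and the 5 nearest genes are named by root mean square difference, with clone names left out. The alternatives were quantile normalization, a filter to brighter probe sets, a trend in the variance prior, array weights, pool numbers as a block, averaging over each gene's probe sets, fitting only the 6 arrays of a comparison, and leaving out each array in turn. Of 18 pairs of same-numbered pools 4 had correlated deviations (r over 0.1), so pool numbers were not taken to pair samples. Figures were drawn with matplotlib 3.10.9.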

Additional observations from a re-analysis of the deposited data

Results flagged for a closer look

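For 8 genes named beside the PDGF genes, the change from E11.5 to E12.5 differed between XY and XX cells in the interaction test of limma. They were 1 of 7 protease, 1 of 14 mesenchyme, 3 of 11 pericyte and smooth muscle and 1 of 12 macrophage and leukocyte genes. The rest were 1 of 5 steroidogenic and 1 of 8 coelomic and mesonephric epithelium markers. The same test called 4 of 11 Sertoli markers and 6 of 8 pregranulosa markers. In the remaining lists it called none at the brightest probe sets. Over all probe sets it called 1.75%. The XY change minus the XX change was 2.58 for Mcam (adjusted p = 0.0045, limma), with group means of 8.31 in XY E12.5, 5.61 in XX E12.5, 6.12 in XY E11.5 and 6 in XX E11.5. It was -2.78 for Acta2 (adjusted p = 0.018, limma), with means of 7.37, 11.01, 9.09 and 9.95 in those groups. It was 2.14 for Ptch1 (adjusted p = 0.036, limma), with means of 12.85, 10.68, 10.98 and 10.94, and 1.13 for Pcsk5 (adjusted p = 0.043), with means of 12.46, 10.87, 12.25 and 11.79. It was -3 for Emx2, 1.36 for Hsd17b3 and 2.39 for Fcgr3 (adjusted p = 0.0027, 0.0043 and 0.013, limma), each called in all 12 omissions. The means in the same group order were 8.59, 11.75, 11.71 and 11.87 for Emx2, 6.06, 4.59, 4.71 and 4.6 for Hsd17b3, and 8.12, 6.9, 6.64 and 7.81 for Fcgr3. For Myh11 it was -2.99 with an adjusted p of 0.05 (limma), just under the threshold before rounding, and with means of 6.15, 9.23, 8.32 and 8.41. The Mcam call held in all 12 omissions of 1 array and that of Acta2 in 10, ending without XY E11.5 pool 2 or XX E12.5 pool 3. The calls of Ptch1, Pcsk5 and Myh11 each held in 2 of 12 omissions, and without XX E11.5 pool 2 the differences were 1.86, 1.18 and -2.41 (adjusted p = 0.058, 0.072 and 0.029, limma). With pool number as a replicate block these 3 were not called (adjusted p = 0.074, 0.089 and 0.073, limma), quantile normalization ended those of Pcsk5 (0.076) and Myh11 (0.0504), and array weights that of Pcsk5 (0.055). None of the 14 PDGF probe sets was called in this test.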

How the results depend on the processing

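Both Pdgfc probe sets and Pdgfra 1421917_at kept their direction in every called comparison under all alternatives run. The call of Pdgfc 1419123_a_at between the sexes at E12.5 and that of Pdgfra 1421917_at in XX cells ended when the compared arrays alone were fitted (adjusted p = 0.091 and 0.071, limma). The replicate block (pool number) left the PDGF probe sets called at 3 for sex at E12.5, 0 for sex at E11.5, 2 for the day in XY, 3 for the day in XX and 0 for the interaction, and changed none of these calls, while all probe sets called went to 3084, 34, 2587, 1201 and 600. Of the list genes named, the block ended the calls of Junb, Dusp1, Spry2, Plcg1, Nck2 and Grb2 for sex at E12.5 (adjusted p = 0.051 to 0.087, limma), Mmp14 and Akt1 for the day in XY (0.053 each), Nr2f2 for the day in XX (0.063) and Pcsk5, Ptch1 and Myh11 in the interaction (0.073 to 0.089). The compared arrays alone ended Junb, Spry2 and Plcg1 for sex at E12.5 (0.075 to 0.089), St14, Mmp14, Acta2, Ptpn1, Sparc, Akt1 and Cd68 for the day in XY (0.054 to 0.097) and Pcsk5 and Nr2f2 for the day in XX (0.075 and 0.091). A variance prior with a trend ended Plcg1 and Grb2 for sex at E12.5 (0.052 and 0.068) and Akt1 for the day in XY (0.093), quantile normalization Plcg1 (0.080) and array weights Cd68 (0.051). With each gene's probe sets averaged, 1 of 6 PDGF genes was called for sex at E12.5, 1 for the day in XY and 2 for the day in XX. Over all probe sets, array weights gave 5794 calls for sex at E12.5 and 2405 for the day in XX, the compared arrays alone gave 12 for sex at E11.5 and 624 for the day in XX, and the mean of probe sets gave 1605 genes for the day in XY. Leaving out 1 array gave 2054 to 3765 for sex at E12.5, 23 to 57 for sex at E11.5, 1277 to 3077 for the day in XY, 183 to 1945 for the day in XX and 403 to 1273 for the interaction over all probe sets, and 1 to 3 for sex at E12.5, 0 to 0 for sex at E11.5, 2 to 2 for the day in XY, 1 to 4 for the day in XX and 0 to 0 for the interaction among the PDGF probe sets. Small uncalled differences changed sign. For sex at E12.5 leaving out 1 array gave -0.25 to 0.13 at Pdgfa 1418711_at. For sex at E11.5 it gave -0.15 to 0.31 at Pdgfb 1450414_at, -0.22 to 0.53 at Pdgfra 1421917_at, -0.08 to 0.20 at Pdgfa 1418711_at, -0.36 to 0.16 at Pdgfd 1426319_at and 0 to 0.38 at Pdgfra 1421916_at. For the day in XY it gave -0.57 to 0.08 at Pdgfra 1421917_at, -0.56 to 0.83 at Pdgfrb 1436970_a_at, -0.03 to 0.23 at Pdgfrb 1417148_at, -0.04 to 0 at Pdgfd 1446691_at and -0.32 to 0.73 at Pdgfd 1456532_at. For the day in XX it gave -0.41 to 1.24 at Pdgfrb 1436970_a_at and -0.37 to 0.01 at Pdgfa 1418711_at. For the day in XY, array weights gave -0.06 at Pdgfd 1456532_at and -0.14 at Pdgfrb 1436970_a_at, and the mean of the Pdgfd probe sets gave -0.05. With 3 arrays per group, changes as small as these cannot be given a direction.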
